A study of Mus musculus with 6 samples.

Results

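The 9 genes described here are markers of the mural cells that wrap blood vessels and of the stroma around them. They were taken by symbol from a table of 17128 genes measured by RNA sequencing in sorted marrow stromal cells of the mouse femur. Acta2, Tagln, Myh11, Cnn1 and Des encode parts of the contractile apparatus and its filaments, and Cspg4, Rgs5, Mcam and Nes are perivascular markers. All 9 had an entry in the table, and 8 passed the filter on low counts. Cnn1 did not, with 48 reads over the 6 libraries.

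Control libraries (n = 3) held GFP+ cells of Cxcl12(GFP/fl); R26R(tdTomato/+) mice, in which GFP replaces one allele of Cxcl12 and the other allele is floxed. The 3 CXCL12-deficient libraries were made from GFP+ tdTomato+ cells of Cxcl12(GFP/fl); Col2a1-cre; R26R(tdTomato/+) mice, in which cre acts in cells that express Col2a1 and in their descendants. All mice were at postnatal day 21, all carried the GFP and floxed alleles and the tdTomato reporter, and about 20000 cells were sorted for each library. The reporter was part of the gate in the CXCL12-deficient group alone, so the gate, the cre transgene and the loss of Cxcl12 cannot be told apart. Whether the libraries of a group come from different animals is not stated in the labels, so p-values measure only the spread between these samples, which may be technical. The labels number no replicates: the numbers used here follow the order of the samples, only name the libraries and pair none of them.

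Mural cells are vascular smooth muscle cells, which ring arteries and arterioles and contract, and pericytes, which sit on capillaries. Contraction uses smooth muscle actin and myosin, and the genes of this apparatus are switched on by serum response factor with its cofactor myocardin at a DNA element known as the CArG box. In bone marrow, CXCL12-abundant stromal cells lie around sinusoids and share several surface markers with pericytes, while arterioles carry a sheath of cells rich in smooth muscle actin.

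The CArG box is shown for Acta2, the most abundant of the contractile markers Acta2, Tagln, Myh11, Cnn1 and Des. The box was chosen because it is the element through which contractile genes are known to be regulated together. RefSeq windows (GRCm38.p6) from 250 bases before to 50 bases after the annotated start were matched for 7 of the 9 genes, all but Tagln and Myh11. Each was searched for the CArG box, which reads the same on both strands, with at most 1 letter different. In the lines that follow, capitals mark the matching stretch.
Acta2, first match: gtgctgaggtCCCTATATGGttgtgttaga
Acta2, second match: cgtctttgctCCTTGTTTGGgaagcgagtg
These stretches lie on the minus strand at chr19:34255438-34255467 and chr19:34255388-34255417, and the boxes begin 84 and 34 bases before the RefSeq start at 34255373. In the GENCODE M21 annotation the outermost start of Acta2 lies 217 bases further out, at 34255590. Both stretches lie inside the gene so annotated and overlap an exon. Cspg4 had 2 matches that overlap each other, and Nes had 1. No match was found in the windows of Des, Rgs5, Cnn1 and Mcam. Of all 32851 windows of 300 bases, 21.1% held such a match, and 1.63% held the box with no letter different, which none of the 7 genes did. A match describes the letters and not the binding of a factor.

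The targeted gene was lower in all CXCL12-deficient libraries than in all controls. Cxcl12, as the sum of its 4 exon entries, had 3876, 3673 and 3694 CPM (reads relative to the TMM-scaled library size) in Control replicates 1, 2 and 3. It had 1423, 1280 and 1163 CPM in CXCL12-deficient replicates 1, 2 and 3. The libraries held 20133299 to 28009257 counts, and 1 read stood for 0.0357 to 0.0472 CPM.

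None of the 8 tested markers was called at an adjusted p below 0.05, but they did not all lean the same way. Des, which encodes the filament protein desmin, was the one contractile marker whose values were higher in all CXCL12-deficient libraries than in all controls. Rgs5, a pericyte marker that encodes a regulator of G protein signalling, and Mcam, which encodes the adhesion molecule CD146, were lower in all of them. Of all 13926 tested genes, edgeR called 3.94% lower and 0.639% higher by its quasi-likelihood test (4.57% in either direction). At an unadjusted p below 0.05 there were 2 lower markers (Rgs5 and Mcam) and 1 higher (Des), beside 11.3% and 7.59% of all tested genes. DESeq2 called Rgs5 lower and Des higher, limma-voom called neither, and limma on the deposited log2 values called Rgs5 alone. The groups did not overlap at 2 lower and 1 higher of the 8 markers, where 13.9% of all tested genes lay lower and 11.7% higher without overlap. In all 6 of the 8 had a negative log2 fold change, with a median of -0.85, where 47.4% of all tested genes were negative and the median was 0.03.

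**Figure D1:**
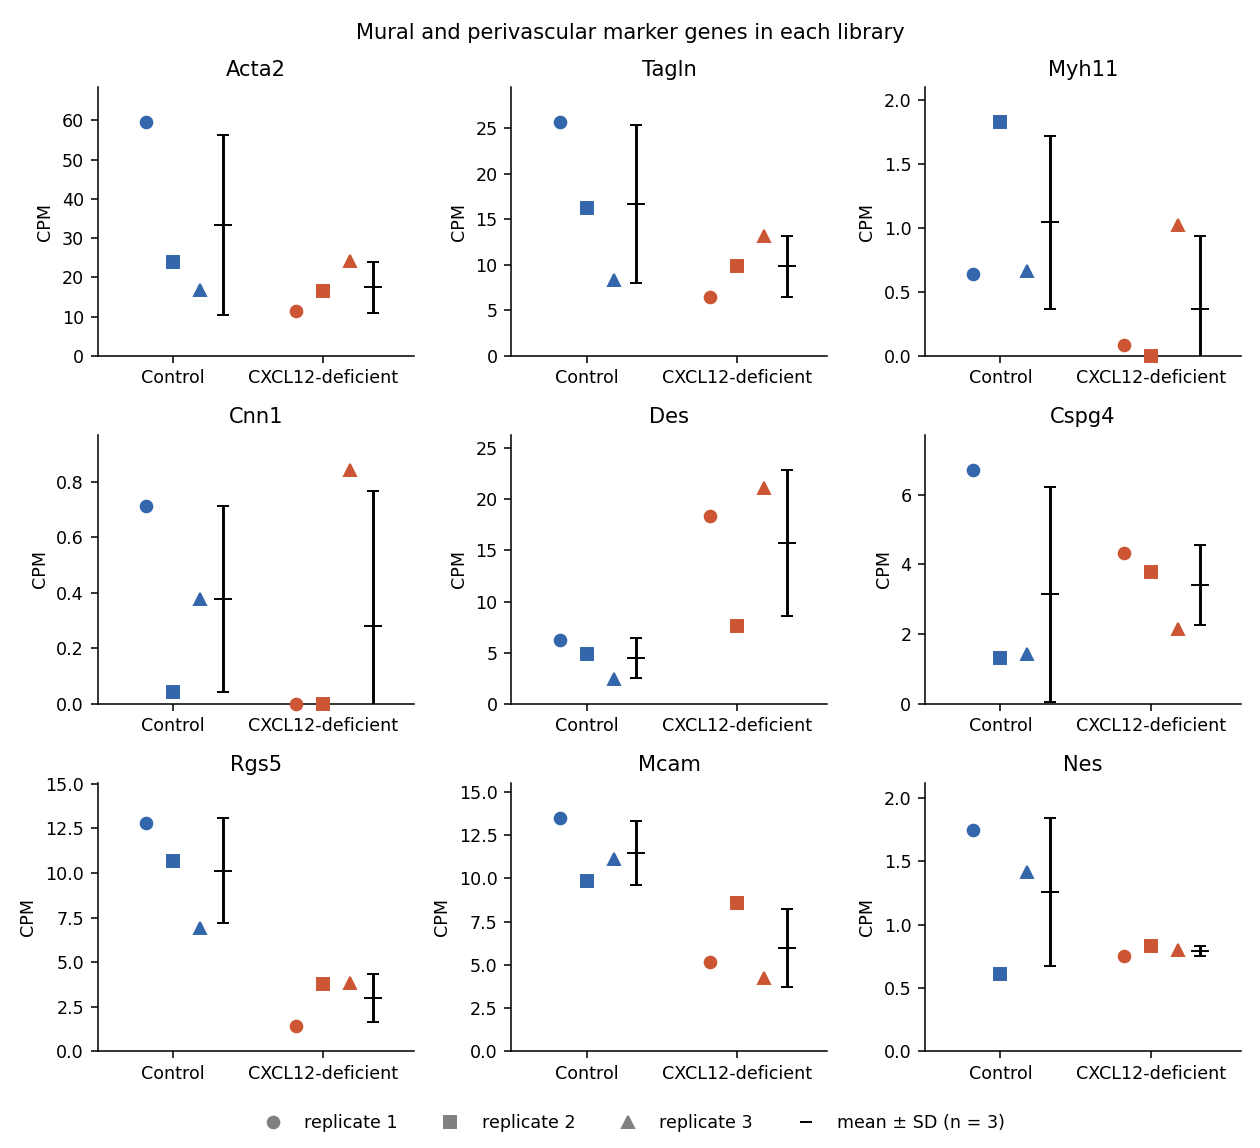
Level of each of the 9 marker genes in CPM (vertical axes, each from 0) in the 3 Control and 3 CXCL12-deficient libraries. Points are libraries, with the shape giving the replicate, and black bars are the mean ± SD of 3 libraries, cut off at 0 for Myh11 and Cnn1. Des lies higher, and Rgs5 and Mcam lower, in all CXCL12-deficient libraries than in all controls. Control replicate 1 stands above all other libraries for Acta2, Tagln, Cspg4, Rgs5, Mcam and Nes.

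Acta2, the smooth muscle actin gene, and Tagln, which encodes the actin-binding protein transgelin, varied more within the control group than between the groups. Acta2 had 59.5, 23.9 and 16.8 CPM in Control replicates 1, 2 and 3, and 11.5, 16.5 and 24.3 CPM in CXCL12-deficient replicates 1, 2 and 3. Control replicate 1 stood far above the other 5 libraries, which overlapped. The mean was 33.4 ± 22.9 CPM among controls and 17.4 ± 6.44 CPM among CXCL12-deficient libraries (SD, n = 3 each). The log2 fold change was -0.94 ± 0.46 (SE; 95% interval -1.98 to 0.10, adjusted p = 0.31). Without Control replicate 1 the log2 fold change was -0.24. The gene lies on the minus strand of chromosome 19, from 34241090 to 34255590 of GRCm38 in the GENCODE M21 annotation.

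Tagln followed Acta2 from library to library. It had 25.6, 16.2 and 8.32 CPM in Control replicates 1, 2 and 3, and 6.50, 9.81 and 13.1 CPM in CXCL12-deficient replicates 1, 2 and 3. The order of the libraries was again led by Control replicate 1, and the groups overlapped. Its log2 fold change was -0.77 ± 0.42 (95% interval -1.72 to 0.18, adjusted p = 0.37), and -0.34 without Control replicate 1. Per length, the ratio of Acta2 to Tagln stayed between 1.34 and 2.10 over the 6 libraries. Tagln (chromosome 9, 45929619 to 45936058, minus strand) shares 108 exon bases with Pcsk7 and 1241 with the antisense gene Gm48529, both on the other strand. Gm48529 was not among the entries used here. Pcsk7 had 54.5 to 59.2 CPM among controls and 46.2 to 55.8 CPM among CXCL12-deficient libraries, and how the counting treated shared bases is not given in the sources used here.

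Des, the muscle intermediate filament gene, went the other way. It had 6.21, 4.84 and 2.36 CPM in Control replicates 1, 2 and 3, and 18.4, 7.59 and 21.1 CPM in CXCL12-deficient replicates 1, 2 and 3. Every CXCL12-deficient library exceeded every control, with replicate 2 nearest to the controls. The mean went from 4.47 ± 1.95 to 15.7 ± 7.17 CPM (SD, n = 3 each), 3.52-fold, with a log2 fold change of 1.81 ± 0.47 (95% interval 0.75 to 2.87). The adjusted p was 0.068 in edgeR and 0.0029 in DESeq2. When 1 library was left out, the log2 fold change ran from 1.49 to 2.14 and passed the threshold in edgeR only without CXCL12-deficient replicate 2 (adjusted p = 0.036).

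The ratio of Des to Acta2, per length, was 0.0611 to 0.119 in controls and 0.269 to 0.937 in CXCL12-deficient libraries, with no overlap. This pair was chosen after its values were seen and was not tested. Des is also a gene of skeletal muscle, which surrounds the femur. Of 14 listed skeletal muscle genes 8 had an entry in the table, and their summed level was 8.17 to 10.7 CPM among controls and 6.63 to 10.2 CPM among CXCL12-deficient libraries. The most abundant of them per length, Mylpf and Actn3, had at most 5.15 and 5.73 CPM in any library. Of the 4 tested ones, 3 had a negative and 1 a positive log2 fold change. The creatine kinase gene Ckm was at 0 in 3 libraries and at most 0.366 CPM. Acta1, of the same list, had at most 0.236 CPM among controls. It had 0.875, 0.262 and 0.0444 CPM in CXCL12-deficient replicates 1, 2 and 3. Ckm and Acta1 were chosen after their values were seen. The part of skeletal muscle in the level of Des was not tested. Desmin lies on chromosome 1, from 75360329 to 75368579 on the plus strand, and shares 220 exon bases with the antisense entry Gm15179, which had at most 0.218 CPM.

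Myh11 and Cnn1, the markers most confined to smooth muscle, were close to 0 in every library. Myh11, the smooth muscle myosin heavy chain gene, had 18, 45 and 14 reads in Control replicates 1, 2 and 3, and 2, 0 and 23 reads in CXCL12-deficient replicates 1, 2 and 3. That is at most 1.83 CPM, and 0 reads in CXCL12-deficient replicate 2 allow up to 0.131 CPM (3 reads, counting error only). Its log2 fold change of -1.50 ± 1.28 (95% interval -4.38 to 1.39, adjusted p = 0.59) ran from -4.47 without CXCL12-deficient replicate 3 to -0.82 without Control replicate 2. A difference in Myh11 was therefore not measurable at this depth and spread.

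Cnn1, which encodes the actin-binding protein calponin 1, had 20, 1 and 8 reads in Control replicates 1, 2 and 3, and 0, 0 and 19 reads in CXCL12-deficient replicates 1, 2 and 3. Its highest level, 0.844 CPM, was in a CXCL12-deficient library. With the filter removed, its log2 fold change was -0.43 ± 1.74 (adjusted p = 0.94, edgeR). Single libraries in both groups held most of the reads of both genes: CXCL12-deficient replicate 3 carried 23 Myh11 reads beside 2 and 0 in the rest of its group, and all 19 Cnn1 reads. Myh11 lies on chromosome 16 (14194535 to 14291372, minus strand) and Cnn1 on chromosome 9 (22099216 to 22109630, plus strand).

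**Figure D2:**
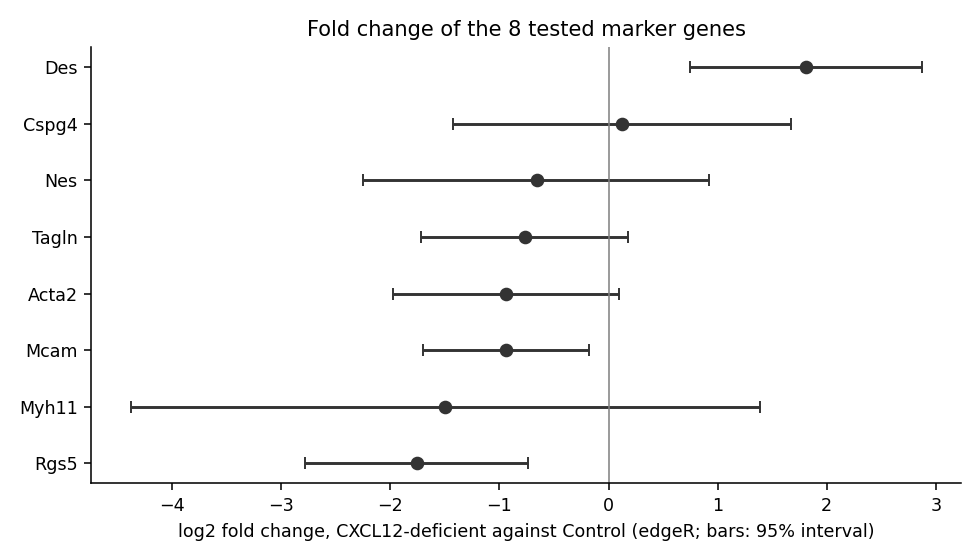
Log2 fold change of the 8 tested marker genes, CXCL12-deficient against Control (horizontal axis), with 95% intervals from the edgeR fit. The unadjusted intervals of Des, Mcam and Rgs5 leave out 0, that of Myh11 spans -4.38 to 1.39, and no gene passed after adjustment over all genes.

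Among the perivascular markers, Rgs5 showed the lowest level relative to controls. It had 12.8, 10.7 and 6.95 CPM in Control replicates 1, 2 and 3, and 1.42, 3.75 and 3.82 CPM in CXCL12-deficient replicates 1, 2 and 3. All controls lay above all CXCL12-deficient libraries. The mean was 10.1 ± 2.96 CPM among controls and 3.0 ± 1.37 CPM among CXCL12-deficient libraries (SD, n = 3 each), 3.39-fold lower, with a log2 fold change of -1.76 ± 0.45 (95% interval -2.78 to -0.74). The adjusted p was 0.065 in edgeR, 0.053 in limma-voom, 0.0035 in DESeq2 and 0.028 by limma on the deposited log2 values. With 1 library left out, edgeR gave log2 fold changes from -1.98 to -1.42 and adjusted p from 0.083 to 0.20. Rgs5 lies on chromosome 1, from 169655501 to 169695813 on the plus strand.

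Mcam had 13.5, 9.84 and 11.1 CPM in Control replicates 1, 2 and 3, and 5.17, 8.55 and 4.26 CPM in CXCL12-deficient replicates 1, 2 and 3. The groups did not overlap, though CXCL12-deficient replicate 2 came close to Control replicate 2. The mean was 1.92-fold lower, from 11.5 ± 1.86 to 5.99 ± 2.26 CPM (SD, n = 3 each), with a log2 fold change of -0.94 ± 0.34 (95% interval -1.70 to -0.18, adjusted p = 0.17). CD146 marks pericytes and perivascular stroma, and endothelial cells carry it as well. The gene lies on chromosome 9, from 44134469 to 44142727 on the plus strand.

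Markers of endothelial cells, which line the vessels that pericytes cover, were lower in the same libraries. The 18 listed endothelial genes summed to 149 to 231 CPM among controls and 34.1 to 52.9 CPM among CXCL12-deficient libraries, and 9 of the 18 were called lower, where 3.94% of all tested genes were. Their median log2 fold change was -2.12, where that of all tested genes was 0.03. The junction gene Cldn5 fell by 2.05 and the secreted vascular factor gene Egfl7 by 1.45 on the log2 scale (adjusted p = 0.013 and 0.015). Blood cell markers were lower too: the summed level of 11 leukocyte genes was 4982 to 8361 CPM among controls and 879 to 1688 CPM among CXCL12-deficient libraries, led by Lyz2 and Mpo. The 8 megakaryocyte genes, led by Pf4 and Ppbp, summed to 103 to 293 CPM and 24.3 to 30.8 CPM. The part of these cells in the levels of Rgs5 and Mcam was not tested. In bulk libraries, fewer cells of a type and less RNA per cell cannot be told apart.

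**Figure D3:**
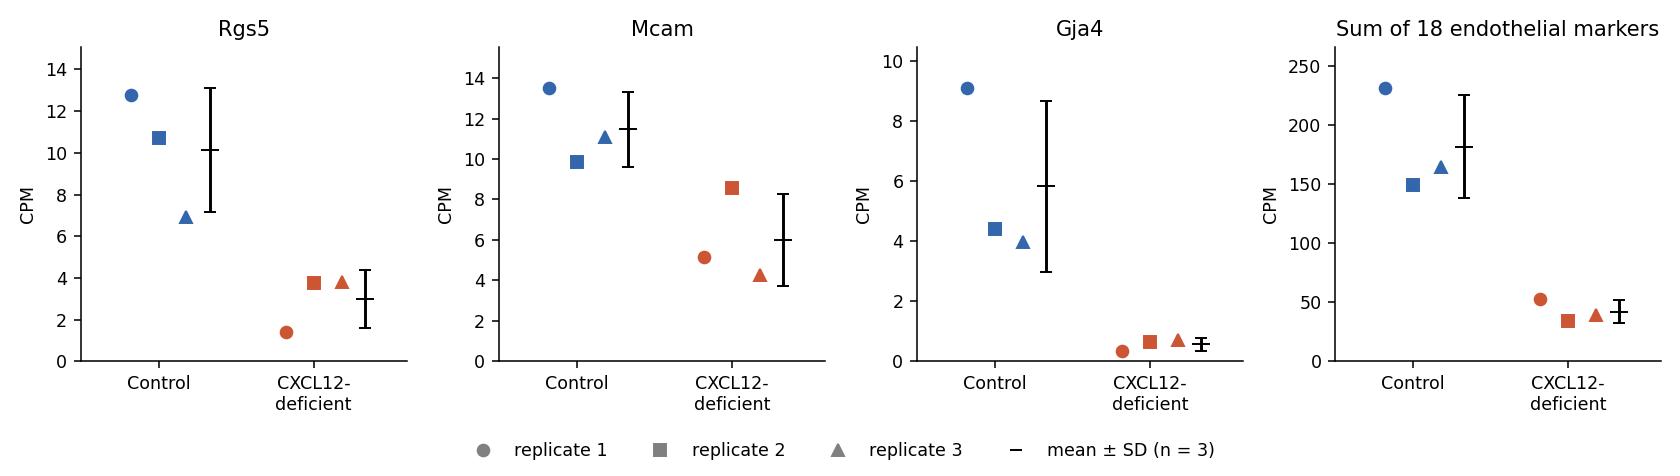
Level in CPM (vertical axes, each from 0) of Rgs5, Mcam and Gja4 and of the sum of 18 endothelial markers in the 3 Control and 3 CXCL12-deficient libraries. Points are libraries, with the shape giving the replicate, and black bars are the mean ± SD of 3 libraries. In all 4 panels every control lies above every CXCL12-deficient library, with the endothelial sum at 149 CPM or more in controls and at most 52.9 CPM in the others.

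Cspg4, which encodes the pericyte proteoglycan NG2, rested on 1 control library. It had 6.71, 1.30 and 1.42 CPM in Control replicates 1, 2 and 3, and 4.33, 3.79 and 2.13 CPM in CXCL12-deficient replicates 1, 2 and 3. The CXCL12-deficient libraries lay between Control replicate 1 and the other two controls. The log2 fold change was 0.12 ± 0.69 (95% interval -1.43 to 1.67, adjusted p = 0.95), and 1.31 without Control replicate 1 (adjusted p = 0.27, edgeR). Its sign turned when Control replicate 2 or 3 or CXCL12-deficient replicate 1 was left out. Cspg4 lies on chromosome 9, from 56865033 to 56899870 on the plus strand.

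Nes, the gene of the intermediate filament nestin, marks perivascular stroma of the marrow in reporter mice, and endothelial and Schwann cells also express it. It had 1.75, 0.610 and 1.42 CPM in Control replicates 1, 2 and 3, and 0.750, 0.829 and 0.799 CPM in CXCL12-deficient replicates 1, 2 and 3. These values rest on 15 to 49 reads per library, and the groups overlapped through Control replicate 2. The log2 fold change was -0.66 ± 0.70 (95% interval -2.25 to 0.92, adjusted p = 0.68). Of the 4 tested Schwann cell genes, 2 had a negative and 2 a positive log2 fold change. The glial gene S100b had 22.5 to 51.2 CPM over all libraries, with overlap (log2 fold change 0.33 ± 0.32). Gfap leaned the same way, also with overlap (log2 fold change 0.48 ± 0.50). The myelin gene Mbp had 9.19 to 25.2 CPM among controls and 2.58 to 7.46 CPM in the CXCL12-deficient group, without overlap (log2 fold change -1.80 ± 0.51, adjusted p = 0.090). Ngfr, which had at most 3.82 CPM and was not tested, also lay lower without overlap, and the Schwann cell regulator Sox10 was at 0 in 4 libraries. Gfap, Ngfr and Sox10 were chosen after their values were seen. The part of such cells in the level of Nes was not tested. The 8 measured Schwann cell genes summed to 40.7 to 65.9 CPM among controls and 45.4 to 60.8 CPM among CXCL12-deficient libraries. Of these sums S100b alone gave 22.5 to 51.2 CPM. Nes lies on chromosome 3, from 87971078 to 87980451 on the plus strand.

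Control replicate 1 was the highest control for 8 of the 9 markers, all but Myh11, and the highest of all 6 libraries for 6 of them. Among all 13926 tested genes it was the highest control for 37.5% and the highest library for 14.5%. For Acta2 it held 2.49 times the level of Control replicate 2 and 3.54 times that of Control replicate 3, and for Cspg4 5.16 and 4.74 times. The summed endothelial level was also highest in this library. Its summed leukocyte level was 4982 CPM, below the 8361 and 7869 CPM of Control replicates 2 and 3. The cause of these differences was not tested.

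To compare the genes with each other, CPM were divided by the length of each gene's merged exons (RPKM). In controls the order was Acta2 (15.2 ± 10.4 RPKM), Tagln (8.40 ± 4.36), Mcam (3.43 ± 0.554), Rgs5 (2.23 ± 0.650), Des (1.19 ± 0.520), Cspg4 (0.263 ± 0.259), Nes (0.196 ± 0.0913), Cnn1 (0.138 ± 0.123) and Myh11 (0.137 ± 0.0895), as mean ± SD of 3 libraries. The ranges of neighbours in this order were separate between Tagln and Mcam, Mcam and Rgs5, and Des and Cspg4, and overlapped elsewhere. In CXCL12-deficient libraries Acta2 (7.94 ± 2.93 RPKM) and Tagln (4.94 ± 1.67) still led. Des (4.19 ± 1.91) came next and overlapped both Tagln and Mcam (1.79 ± 0.674), followed by Rgs5 (0.659 ± 0.301). The pericyte receptor gene Pdgfrb, which marrow stroma also expresses, had 107 RPKM as the mean of all 6 libraries.

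**Figure D4:**
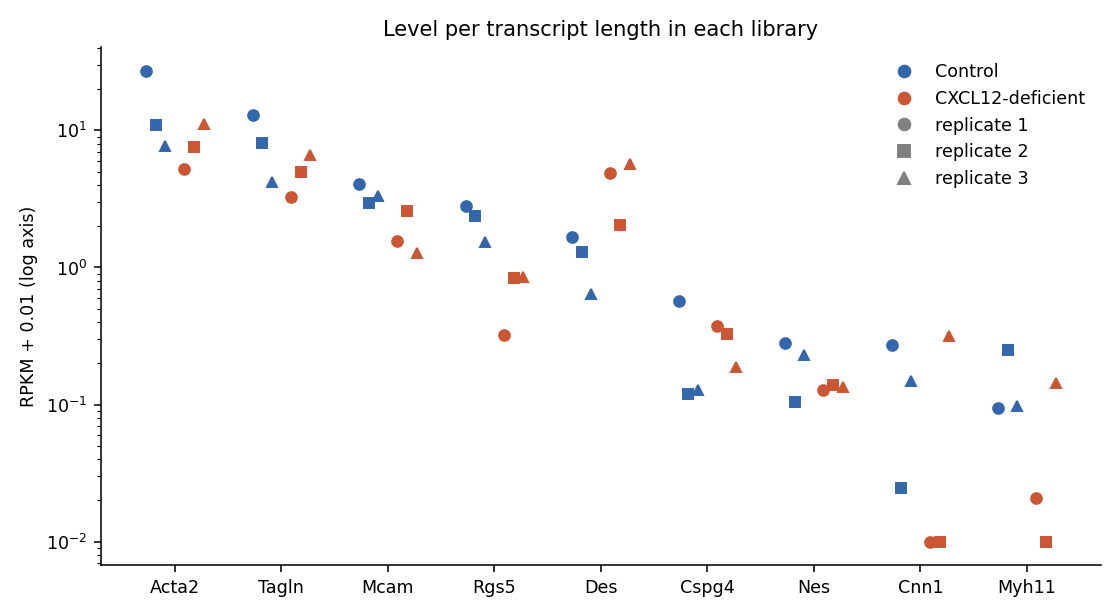
Level per length of the 9 marker genes in each library, as RPKM plus 0.01 on a log axis, ordered by the control mean. Points are libraries, coloured by group and shaped by replicate, and points at the bottom of Cnn1 and Myh11 are libraries with 0 reads. Acta2 and Tagln lead in controls, at 15.2 and 8.40 RPKM, and Cnn1 and Myh11 are the lowest in both groups.

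Of 16 other genes of the contractile apparatus 14 were tested, 1 fell and 0 rose, where 3.94% and 0.639% of all tested genes did. The median was -0.19 on the log2 scale, where that of all tested genes was 0.03. Cald1 and Pdlim7, which encode the actin-binding caldesmon and a LIM protein, lay higher without overlap and were not called (log2 fold change 0.47 ± 0.17 and 0.31 ± 0.15, adjusted p = 0.18 and 0.31). The enteric actin gene Actg2 was too variable to place (log2 fold change -1.36, 95% interval -3.67 to 0.95). These 3 genes were chosen after their values were seen. The gene that fell was Csrp1, which encodes a LIM protein of smooth muscle. It had 101, 105 and 109 CPM in Control replicates 1, 2 and 3, and 71.4, 65.4 and 68.5 CPM in CXCL12-deficient replicates 1, 2 and 3. Both groups were tight and apart, with a log2 fold change of -0.62 ± 0.14 (adjusted p = 0.038), yet the call was lost whichever of the 6 libraries was removed (adjusted p from 0.056 to 0.16).

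The pericyte genes held the largest difference among the listed mural genes, with the rest mostly uncalled. Of 19 listed genes 17 were tested, 1 fell and 0 rose, where 3.94% and 0.639% of all tested genes did. The median log2 fold change was -0.21, where that of all tested genes was 0.03. DESeq2 called 1 higher, the purinergic receptor gene P2ry14, and limma-voom called none higher. Of all 13926 tested genes they called 302 and 92 higher. P2ry14 had 13.05 to 15.99 CPM among controls, and 87.8, 27.2 and 24.0 CPM in CXCL12-deficient replicates 1, 2 and 3. Its log2 fold change in edgeR was 1.67 with all libraries and 0.81 without CXCL12-deficient replicate 1. The gene that fell was Gja4, which encodes the gap junction protein connexin 37 of arterial endothelium and mural cells. It had 9.10, 4.43 and 3.97 CPM in Control replicates 1, 2 and 3, and 0.333, 0.654 and 0.710 CPM in CXCL12-deficient replicates 1, 2 and 3. The log2 fold change was -3.36 ± 0.57 (adjusted p = 0.015). The call was made in 4 of the 6 refits and was lost without Control replicate 2 or 3, with adjusted p up to 0.055. The endothelial markers given above were lower in the same libraries, and their part in Gja4 was not tested.

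The defining markers of pericytes were present to very different degrees. Pdgfrb had 464 to 526 CPM among controls and 511 to 787 CPM among CXCL12-deficient libraries. The channel genes Abcc9 and Kcnj8 had 26.3 to 48.9 CPM and 4.54 to 15.6 CPM over all libraries. Higd1b, a gene of pericytes in other tissues, had at most 0.178 CPM, from 12 reads in all 6 libraries. The labels name the sorted cells as CXCL12+ stromal cells. Of the smooth muscle markers, Myh11 and Cnn1 were near 0 in both groups, while Acta2, Tagln and the myosin light chain gene Myl9 (178 to 326 CPM) were well detected. Myl9, Pdgfrb, Abcc9, Kcnj8 and Higd1b were chosen after their values were seen.

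Of the 13 regulators of mural cells, 11 were tested and edgeR called none, where it called 4.57% of all tested genes. At an unadjusted p below 0.05 there was 1 lower gene (Mef2c) and 1 higher (Heyl), beside 11.3% and 7.59% of all tested genes. Without overlap 1 gene lay lower (Klf4, log2 fold change -0.40 ± 0.19) and 1 higher (Heyl), beside 13.9% and 11.7%. Mef2c and Klf4 were named after their values were seen. The median was 0.07 on the log2 scale, where that of all tested genes was 0.03. DESeq2 and limma-voom each called 1 higher, where they called 302 and 92 of all 13926 tested genes higher. Both tools called Heyl, a target of Notch signalling. Heyl had 141, 215 and 145 CPM in Control replicates 1, 2 and 3, and 252, 303 and 380 CPM in CXCL12-deficient replicates 1, 2 and 3. The groups did not overlap, and the log2 fold change was 0.90 ± 0.22 (95% interval 0.40 to 1.40), with an adjusted p of 0.054 in edgeR and 0.041 in limma-voom. The forkhead factor gene Foxs1 had 31.8 ± 13.3 and 39.3 ± 19.7 CPM (SD, n = 3 each) and overlapped. Srf, which encodes serum response factor, chosen after its value was seen, had 18.5 to 24.5 CPM among controls and 20.7 to 24.6 CPM among CXCL12-deficient libraries (log2 fold change 0.07 ± 0.20).

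Of 14 listed genes of the perivascular stroma 13 were tested, 1 rose and 0 fell, where 0.639% and 3.94% of all tested genes did. Of the 13, 3 had a negative log2 fold change, where 47.4% of all tested genes did, and the median was 0.41, where that of all genes was 0.03. The gene that rose was Ebf3, a transcription factor gene of CXCL12-abundant cells, with 66.4 ± 0.162 CPM among controls and 109 ± 7.31 CPM among CXCL12-deficient libraries (log2 fold change 0.71 ± 0.14, adjusted p = 0.023). With 1 library removed at a time it was called in 1 of 6 refits, the one without CXCL12-deficient replicate 2. At an unadjusted p below 0.05 there were 4 higher and 0 lower genes, beside 7.59% and 11.3% of all tested genes. Without overlap 2 lay higher (Ebf3 and Lepr) and 0 lower, beside 11.7% and 13.9%. Lepr, named after its values were seen, was not called by edgeR (log2 fold change 0.72 ± 0.19, adjusted p = 0.075).

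**Figure D5:**
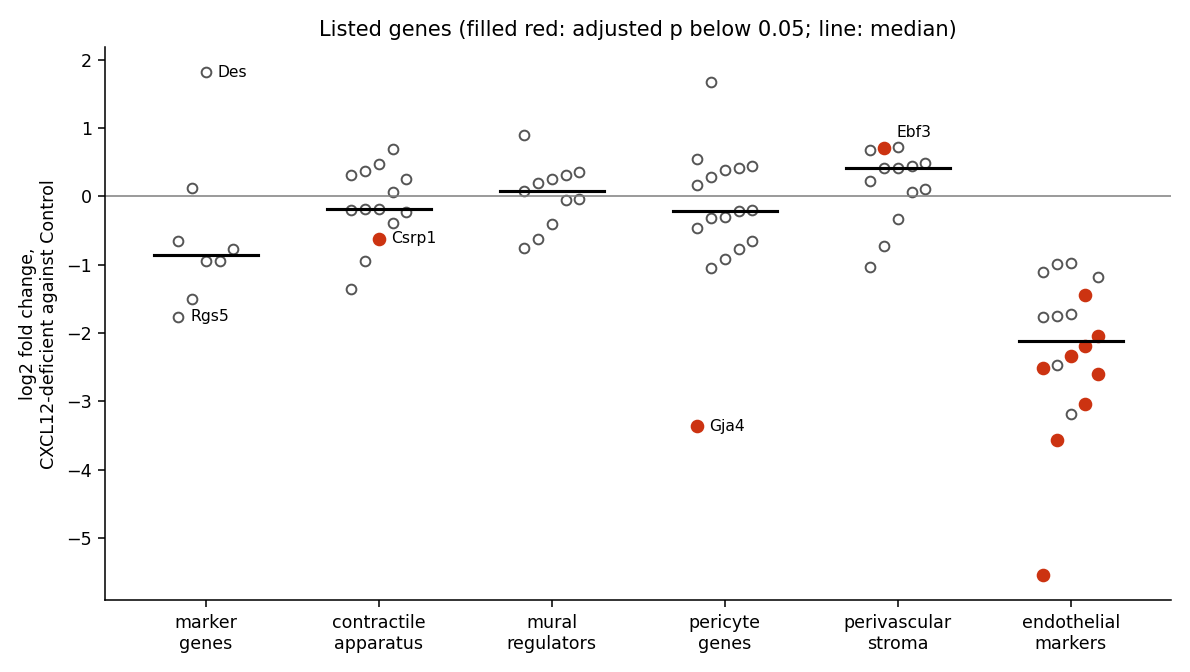
Log2 fold change, CXCL12-deficient against Control (vertical axis), of the tested genes of 6 lists; each point is a gene, filled red where the adjusted p was below 0.05, and black lines are medians. Csrp1, Gja4 and Ebf3 are the called genes of the 4 mural and stromal lists, and the endothelial list lies lowest, with a median of -2.12.

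The genes whose levels followed each marker most closely differed from marker to marker. Likeness was the root mean square difference of log2 CPM over the 6 libraries, each gene centred on its own mean, among 12990 other genes whose mean reached 1 CPM. The closest to Acta2 were Arhgef4, Fam78b and Fam72a (0.201, 0.249 and 0.281), and the closest to Tagln were Arhgef4, Dixdc1 and Fam78b (0.158, 0.208 and 0.234). Arhgef4 and Fam78b were thus among the 3 closest to both.

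Des had no gene as near, its closest being Sfrp4, Aspa and Morn1 (0.356, 0.360 and 0.405). Sfrp4, which encodes a secreted Wnt antagonist, had 446 to 566 CPM among controls and 858 to 1998 CPM among CXCL12-deficient libraries, with replicate 2 the lowest of that group as for Des. For Cspg4 they were Vgll3, Tshz2 and Loxl4 (0.188, 0.242 and 0.280). For Rgs5 they were 1600010M07Rik, Ctla2a and Ctla2b (0.265, 0.300 and 0.309), of which the last 2 are near-identical genes that can share reads. For Mcam they were Diap1, Sdsl and Fosl1 (0.118, 0.120 and 0.128), and for Nes they were Dnm3, Synrg and Plec (0.096, 0.123 and 0.152). The likeness rests on 6 libraries that share the 2 groups, so these names are a description.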

How the data were processed

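The authors deposited raw read counts per gene as whole numbers, and regularized log2 values. Per the submitters' processing notes, the tools were Bowtie2 2.2.1, TopHat2 2.0.13, HTSeq, DESeq2, Cuffdiff, Cufflinks and FastQC, with the build mm10. The sources used here do not give their roles, the annotation or the strand setting.

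The 17131 entries became 17128 genes after the 4 Cxcl12 exon entries were summed. The filter of edgeR (filterByExpr, minimum count 10, minimum total 15) kept 13926. The main test was edgeR 4.0.16 (R 4.3.3; TMM factors, robust quasi-likelihood F-test). A gene was called when its p-value, adjusted by Benjamini-Hochberg over the whole tested table, was below 0.05. SE and 95% intervals came from the F statistic. Counts of 13926 genes were simulated, drawn independently with the mean level of each gene over all 6 libraries. Of these genes 13673 passed the filter again. On these the fit recovered 12.5% of the 24 genes counted as changed 1.5-fold and 44% of 50 changed 2-fold. It recovered 98% of 50 changed 4-fold and 94% of 50 changed 8-fold, and 12 of 135 calls were false. The changed genes were drawn from the more abundant genes only. The recovery therefore does not cover markers as low as Cspg4, Nes, Myh11 and Cnn1. Lengths and positions are from GENCODE M21 on GRCm38, and may differ from the authors' annotation.

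The members and lists were chosen with earlier results of these data known. Named genes were the 9 markers, the called genes of each mural or stromal list (at most 4, or else the 2 most abundant per length), the 2 most abundant per length of each list of other cells, and the 3 closest profiles per marker; all other genes, those that overlap a marker and those that change with a setting included, were named after their values were seen. Of the listed genes Myocd and Lamc3, 6 skeletal muscle and 2 Schwann cell genes matched no entry used here.

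Results were recomputed with 2 other scalings (DESeq2 size factors and upper quartile), with all genes that had a read, with genes reaching 1 CPM in 3 libraries, without robust shrinkage, by limma-voom (limma 3.58.1), by DESeq2 1.42.0, by limma on the deposited log2 values, with a threshold of 0.1, and with 1 library removed at a time.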

Additional observations from a re-analysis of the deposited data

How the results depend on the processing

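The count of called markers was 0 in each direction. It was 1 lower by DESeq2, by limma on the deposited log2 values and at an adjusted p below 0.1 (Rgs5 each time), and 1 higher by DESeq2 and at an adjusted p below 0.1 (Des). With 1 library left out it was 0 lower, and 0 to 1 higher. The contractile list had 1 lower gene, and 0 without any one of the libraries. The regulators had 0 higher, and 1 with upper quartile factors, without the filter, by DESeq2, limma-voom or limma on the log2 values and at an adjusted p below 0.1 (Heyl each time), and 0 to 1 with 1 library left out. The pericyte list had 1 lower gene, and 0 to 3 with 1 library left out (Rgs4 and Trpc6 joined Gja4 without CXCL12-deficient replicate 3). It had 0 higher, with 1 by DESeq2 and at an adjusted p below 0.1, and 0 to 1 with 1 library left out (P2ry14 each time). The stromal list had 1 higher, with 2 by DESeq2 and at an adjusted p below 0.1, and 0 to 3 with 1 library left out (Lepr joined Ebf3 each time, with Kitl as the last without CXCL12-deficient replicate 2). Of the single markers, Cspg4 alone changed sign: leaving out Control replicate 2 or 3 gave a log2 fold change of -0.25 or -0.24, leaving out CXCL12-deficient replicate 1 gave -0.09, and leaving out Control replicate 1 gave 1.31. The causes of these changes were not tested. Over all genes, 548 were called lower and 89 higher by edgeR, against 989 and 302 by DESeq2, 809 and 231 at an adjusted p below 0.1, and 74 to 530 and 0 to 76 with 1 library left out. No paired analysis was possible because the labels give no replicate numbers (those printed here only name the libraries). Depth limits Myh11, Cnn1 and Nes, which had at most 49 reads in a library.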
